A study of Homo sapiens with 6 samples.

Results

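The collagen genes of MDA-MB-453 cells were examined in libraries of cells cultured with 25(OH)D and with solvent. A gene was taken as a collagen gene where its name in the count table was COL, a number, A and a number, which gave 41 of the 33451 genes in the table. COL3A1, COL6A5 and COL26A1 had no row under these names in the count table, so they were not analysed and the summed levels do not include them. The line MDA-MB-453 was established from a human breast cancer, and 25(OH)D (25-hydroxyvitamin D) is the main vitamin D metabolite in the circulation. For 5 days the cells received either 25(OH)D at 100 nM or only its solvent, alcohol, and 3 libraries of mRNA were sequenced from each group. Both groups were the same line in the same medium, and the labels do not say whether the libraries came from separate cultures. The p-values therefore set the difference between groups against the spread between these libraries only. A culture of a single line holds no stroma, so the data describe the collagen transcripts of 1 tumour cell line.

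Collagens are proteins of the extracellular matrix whose chains wind around one another into a helix, which requires a glycine at regular positions along the chain. Fibrillar collagens form the tensile fibres of connective tissue, type IV collagen forms the network of the basement membrane under an epithelium, and type VII collagen anchors that membrane to the tissue beneath. FACIT collagens (fibril-associated collagens with interrupted helices) decorate the surface of fibrils, and others are held in the cell membrane by a transmembrane segment. In breast tissue most fibrillar collagen is made by fibroblasts, while epithelial cells contribute to the basement membrane. Vitamin D acts through the vitamin D receptor VDR, a transcription factor that binds DNA together with RXR.

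The libraries held between 33268860 and 40928176 counts, and 3 counts, taken as the lower limit, were worth 0.0720 to 0.0921 CPM, the count after scaling every library to the same size. Transcripts of the mitochondrial genome made up 7.85% to 7.99% of the control libraries and 8.89% to 9.24% of the 25(OH)D libraries, and the part of this difference in the collagen results was not tested. Among the values from 1 to 10 in the whole table, 68.5% were even, and intervals for genes at low counts are therefore also given with all counts halved. The 9 luminal breast epithelial markers examined were all abundant, with a lowest count of 2723 in any library. Of the fibroblast markers, 6 of 7 were in the table with at most 14 counts in any library, and their summed level was 0.106 to 0.528 CPM in control and 0.284 to 0.312 CPM with 25(OH)D. The 3 endothelial markers in the table and the 4 leukocyte markers had at most 8 counts in any library, with summed levels of 0.144 to 0.264 CPM and 0.0720 to 0.212 CPM in control and of 0.0614 to 0.171 CPM and 0.123 to 0.364 CPM with 25(OH)D. PDGFRA, LUM, KDR and CD3E were each at 0 in every control library.

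Of the 41 collagen genes, 32 had at least 10 counts over the 6 libraries, 25 reached 10 counts in at least 1 library, and 14 had at least 10 counts in every library. The low-count filter of edgeR, which has a minimum count of 10, kept 21. Of these, 6 were higher and 4 were lower with 25(OH)D at an adjusted p under 0.05 by edgeR's quasi-likelihood test, and 11 did not pass. Over all 18183 genes tested, 33.8% passed the test, with 17.3% higher and 16.5% lower. Filtering affects this count, since COL11A1, COL6A3, COL2A1, COL13A1 and COL23A1 passed the filter only through the 25(OH)D libraries and COL27A1 only through the control libraries. The median log2 fold change of the 21 genes was 0.29, beside -0.01 over all genes tested, and it was -0.06 over the 14 genes with at least 10 counts in every library and 0.03 by limma on log2(RPKM + 1). With a call rule of more than 1 log2 unit of change in either direction and p under 0.05 before adjustment, 4 collagen genes were higher and 1 was lower, where 6.65% of all genes tested passed. The CPM values of the groups did not overlap in 12 of the 21 genes, which included all 10 that passed the test, and in 45.7% of all genes tested.

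**Figure D1:**
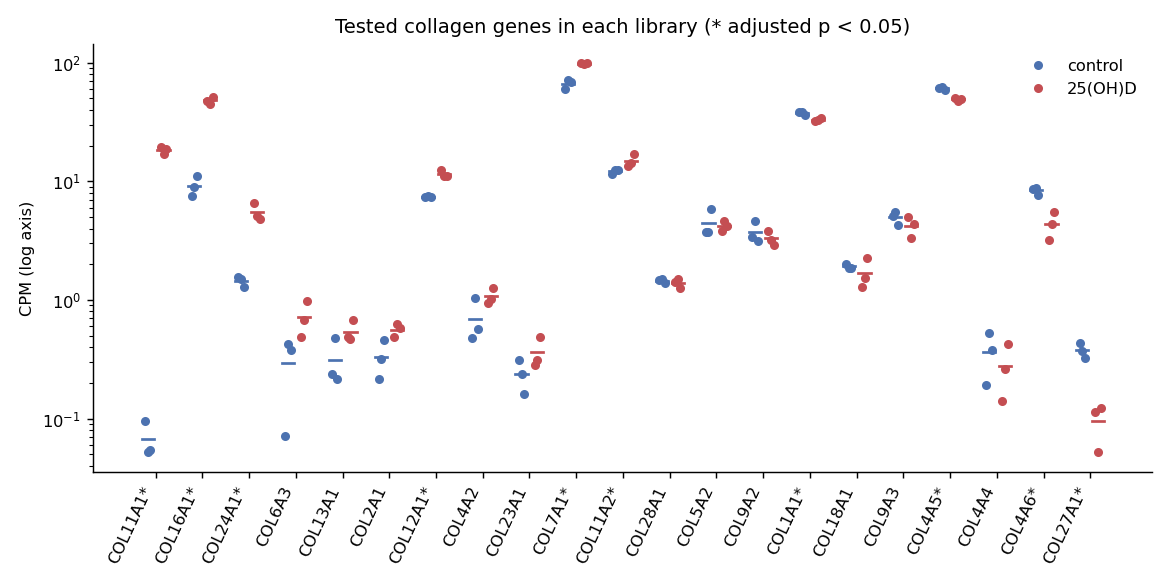
CPM on a log axis of the 21 tested collagen genes in each of the 3 control (blue) and 3 25(OH)D (red) libraries, ordered by log2 fold change, with the group mean as a line and an asterisk at an adjusted p under 0.05. COL11A1 lies at 0.0678 CPM on average in control and at 18.4 CPM with 25(OH)D, and the groups do not overlap in any gene with an asterisk.

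The collagen transcripts of the untreated cells were those of a few genes. On the RPKM scale, which divides counts by gene length and library total, COL4A5 was the most abundant in control at 7.04 ± 0.253 (SD, n = 3), followed by COL7A1 at 6.06 ± 0.571, COL1A1 at 3.88 ± 0.161 and COL11A2 at 1.84 ± 0.0773. COL4A5 lay above COL7A1 in each control library, with a lowest value of 6.77 RPKM against a highest of 6.56 RPKM. COL9A3, COL16A1, COL4A6 and COL9A2 came next with means between 0.908 and 1.05 RPKM, and their values overlapped. With 25(OH)D the order began with COL7A1 at 8.68 ± 0.0171, COL4A5 at 5.54 ± 0.121, COL16A1 at 5.09 ± 0.344, COL1A1 at 3.32 ± 0.116 and COL11A1 at 2.18 ± 0.137. COL11A1 and COL11A2, at 2.18 ± 0.276 RPKM, had overlapping values in the 25(OH)D libraries. In control COL16A1 was at 1.01 ± 0.191 RPKM, and COL11A1, at 0.00831 ± 0.00303 RPKM, lay among genes at about the limit of 3 counts.

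The summed level of the 41 genes was 24.1 to 26.2 RPKM in the control libraries and 31.3 to 33.1 RPKM in the 25(OH)D libraries, and the groups did not overlap. On the CPM scale the sums were 214 to 233 and 293 to 311. Type IV collagen genes contributed 32.4% ± 1.19 (SD, n = 3) of the summed RPKM in control and 19.2% ± 0.157 with 25(OH)D, as their own sum went from 8.08 ± 0.350 to 6.17 ± 0.118 RPKM and the total rose. FACIT genes contributed 14.4% ± 0.515 and 23.9% ± 0.956, with sums of 3.60 ± 0.283 and 7.69 ± 0.455 RPKM. Nearly all of this rise was that of COL16A1, at 1.01 ± 0.191 RPKM in control and 5.09 ± 0.344 RPKM with 25(OH)D. Its share of all collagen RPKM went from 4.03% ± 0.773 to 15.8% ± 0.643. The share of COL12A1 went from 2.40% ± 0.0740 to 2.83% ± 0.225, and those of COL9A3 and COL9A2 fell. The share of the fibrillar genes was 26.5% ± 1.05 and 27.7% ± 0.537, and its values overlapped between the groups. Within the fibrillar genes, COL11A1 rose from 0.0335% ± 0.0134 to 6.77% ± 0.335 of all collagen RPKM, while COL1A1 went from 15.5% ± 0.875 to 10.3% ± 0.366. The smallest two-sided p of an exact permutation test of 3 libraries against 3 is 0.1, and the sums and shares are given as descriptions.

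**Figure D2:**
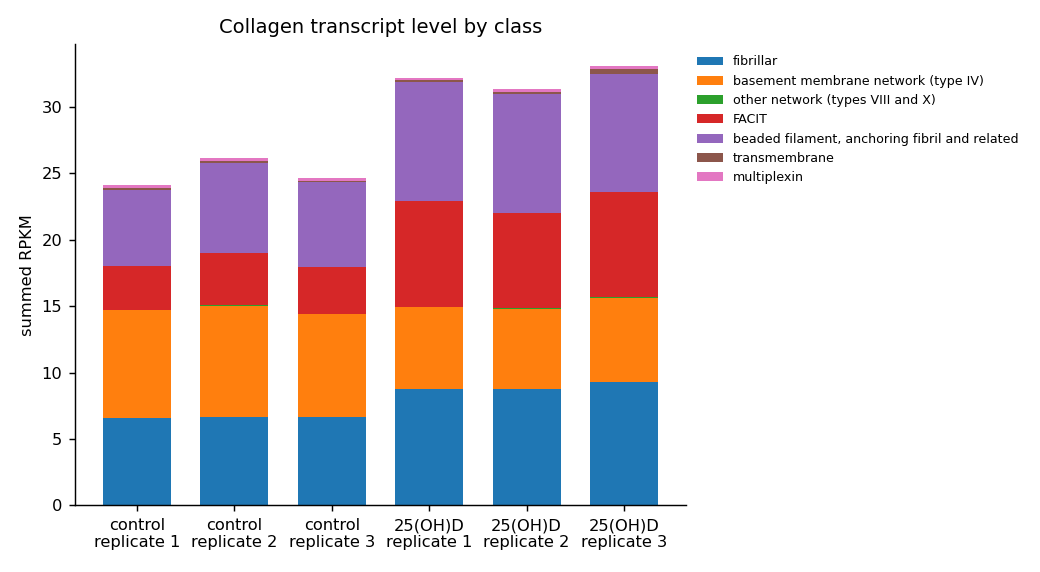
Summed RPKM of the 41 collagen genes in each library, stacked by structural class. The bars reach 24.1 to 26.2 RPKM in control and 31.3 to 33.1 RPKM with 25(OH)D. The type IV part shrinks from 32.4% to 19.2% of the bar on average. The FACIT part grows from 14.4% to 23.9%, nearly all of it through COL16A1.

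Among the fibrillar genes, 10 were in the table and 7 were tested, of which 3 were higher and 2 were lower. Over all genes tested, 33.8% passed. Of these fibrillar genes, COL11A1 and COL27A1 passed the low-count filter only through the group where they were higher. COL11A1, which encodes a chain of the minor fibrillar collagen XI that sits inside type II collagen fibrils of cartilage, had 4, 2 and 2 counts in control and 682, 652 and 610 counts with 25(OH)D. Its transcript was thus close to undetected in each control library and plainly present in each 25(OH)D library. Scaled to library size, the summed counts of 8 and 1944 differed by 266 times (exact 95% interval 135 to 617, counting error only), and with all counts halved the interval was 104 to 979. The fitted log2 fold change was 7.99 ± 0.20 (SE, adjusted p 6.32e-13), a value that depends on the prior count added to every library. This SE is derived from the test statistic and is narrower than the counting error of the 8 control counts. The exact interval is therefore the better guide to the uncertainty. The gene lies at chr1:102876467-103108496 on the minus strand of GRCh38.

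COL24A1 encodes another fibrillar chain and lies at chr1:85729233-86156943 on the same strand. It had 65, 57 and 47 counts in control against 232, 195 and 156 with 25(OH)D. Every 25(OH)D library was above every control library, and the gene rose by a log2 fold change of 1.92 ± 0.18 (SE; adjusted p 1.53e-06 by edgeR). COL11A2, whose product pairs with that of COL11A1 in collagen XI, lies at chr6:33162681-33192499. Its counts were 482, 472 and 462 in control and 469, 550 and 556 with 25(OH)D, which overlap, while the CPM values did not, at 11.6 to 12.5 and 13.3 to 17.1. The log2 fold change was 0.29 ± 0.10 (adjusted p 0.0375). This call was lost without TMM factors (adjusted p 0.0721), with upper-quartile factors (0.0694) and in both limma fits (0.132 and 0.146). It was also lost without control replicate 1 or 2 or 25(OH)D replicate 2 or 3 (adjusted p 0.0506 to 0.152). COL2A1, the cartilage collagen and the third kind of chain found in collagen XI, had 9, 12 and 17 counts in control and 17, 24 and 19 with 25(OH)D (log2 fold change 0.77 ± 0.42, adjusted p 0.186).

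The fibrillar genes that were lower were COL1A1 and COL27A1. COL1A1 encodes the main chain of type I collagen, the chief collagen of connective tissue, and lies at chr17:50183289-50201632. It had 1604, 1441 and 1323 counts in control and 1124, 1270 and 1119 with 25(OH)D. The fall was small, at a log2 fold change of -0.18 ± 0.06 (adjusted p 0.0320). The call was lost without control replicate 1 or 2 or 25(OH)D replicate 1 or 2 (adjusted p 0.0984 to 0.123). The same held without a low-count filter (adjusted p 0.0677) and with the replicate number as a block (0.0511). Its partner chain COL1A2 was not tested, with 12, 6 and 16 counts in control and 0, 2 and 6 with 25(OH)D. Type I collagen transcripts in these cells were thus almost all of COL1A1, at 3.88 RPKM in control beside 0.0267 RPKM for COL1A2. COL27A1, a fibrillar gene known from cartilage, at chr9:114155560-114312511, had 18, 14 and 12 counts in control and 4, 2 and 4 with 25(OH)D. The ratio of its summed counts was 0.249 (exact 95% interval 0.112 to 0.502, and 0.0736 to 0.674 with counts halved). The fitted log2 fold change was -1.96 ± 0.55 (adjusted p 0.0130), and it did not pass without control replicate 1 (adjusted p 0.0589) or without 25(OH)D replicate 2 (0.0803). COL5A2, a chain of the minor fibrillar collagen V, had 140 to 214 counts in control and 133 to 177 with 25(OH)D (-0.07 ± 0.18, adjusted p 0.806). The other collagen V genes were scarcely detected, with 15 counts in all for COL5A1 and 10 for COL5A3.

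All 6 type IV genes were in the table, 4 were tested, and the 2 that passed the test were lower, beside 16.5% lower over all genes tested. COL4A5, which encodes a basement membrane chain, had 2534, 2362 and 2158 counts in control and 1776, 1841 and 1603 with 25(OH)D. Its log2 fold change was -0.30 ± 0.05 (adjusted p 0.000402), a level 1.23 times higher in control. COL4A6, which encodes the chain that assembles with that of COL4A5 in some basement membranes, had 360, 332 and 282 counts in control and 112, 167 and 181 with 25(OH)D. It fell further, by 0.94 on the log2 scale with a standard error of 0.16 (adjusted p 0.000451). The difference between these falls was not tested. COL4A2 had 20, 39 and 21 counts in control and 33, 39 and 41 with 25(OH)D (0.62 ± 0.35, adjusted p 0.197), and its usual partner COL4A1 had 1 count over the 6 libraries. COL4A4 had 8, 20 and 14 against 5, 10 and 14 counts (-0.40 ± 0.54, adjusted p 0.615), and COL4A3 was not tested with 24 counts in all.

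The type IV genes sit in pairs that are read in opposite directions. COL4A5 starts at chrX:108439844 on the plus strand and COL4A6 at chrX:108439497 on the minus strand, with 346 bases between them. COL4A4 and COL4A3 are 451 bases apart on chromosome 2, and the annotated spans of COL4A1 and COL4A2 overlap by 1338 bases on chromosome 13. Promoter windows of RefSeq on GRCh38.p14, from 250 bases before to 50 bases after each start, overlapped in all 3 pairs, by 121 bases for COL4A5 and COL4A6, 82 bases for COL4A3 and COL4A4, and 226 bases for COL4A1 and COL4A2. Another COL4A6 window, farther from the gene's start in the count table, lies at chrX:108438373-108438672. It shared 0 bases with the COL4A5 window, and which COL4A6 start was in use was not tested. The windows of the pair in which both genes fell are shown because 1 stretch of DNA lies in front of both. They are written 5′ to 3′ on each gene's own strand, at chrX:108439588-108439887 for COL4A5 and chrX:108439409-108439708 for COL4A6, and the capitals mark the 121 bases they share.
COL4A5: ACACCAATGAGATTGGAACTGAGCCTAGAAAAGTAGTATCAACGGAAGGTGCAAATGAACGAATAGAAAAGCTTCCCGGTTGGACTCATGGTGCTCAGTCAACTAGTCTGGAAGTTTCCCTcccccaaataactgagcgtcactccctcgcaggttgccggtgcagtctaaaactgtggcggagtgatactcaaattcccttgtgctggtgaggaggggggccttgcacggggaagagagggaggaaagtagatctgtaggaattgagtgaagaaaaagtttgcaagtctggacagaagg
COL4A6: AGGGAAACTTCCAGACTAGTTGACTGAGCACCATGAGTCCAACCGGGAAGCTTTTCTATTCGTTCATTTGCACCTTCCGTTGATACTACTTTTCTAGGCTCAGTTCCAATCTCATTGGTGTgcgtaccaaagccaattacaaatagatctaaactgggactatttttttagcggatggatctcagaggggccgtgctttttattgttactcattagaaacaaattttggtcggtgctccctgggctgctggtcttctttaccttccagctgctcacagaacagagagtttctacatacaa
The shared bases held CCAAT, the letters of a common promoter element, at 2 places when both strands were read, and 34.6% of the 35116 windows in the table held it somewhere.

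FACIT genes numbered 10, of which 4 were tested and 2 were higher, beside 17.3% higher over all genes tested. COL16A1, whose product associates with fibrils in several tissues, lies at chr1:31652247-31704319 on the minus strand and had 315, 337 and 409 counts in control and 1665, 1721 and 1685 with 25(OH)D. The lowest 25(OH)D library was above the highest control library, and the level was 5.22 times higher (log2 fold change 2.39 ± 0.11, adjusted p 5.91e-10). An antisense gene, RP11-73M7.6, shares 117 of its 9269 exon bases and was higher too (1.45 ± 0.18, 661 counts in all). Whether counting used the strand is not given in the sources used here, so reads from these bases cannot be assigned to 1 gene. COL12A1, which encodes a chain on the surface of type I collagen fibrils, at chr6:75084326-75206051, had 304, 282 and 272 counts in control and 440, 428 and 358 with 25(OH)D (0.65 ± 0.10, adjusted p 0.000125). COL9A3 and COL9A2, chains of the cartilage collagen IX, had 159 to 213 and 116 to 175 counts in control and 127 to 176 and 95 to 134 with 25(OH)D. Their log2 fold changes of -0.24 ± 0.17 and -0.16 ± 0.18 did not pass the test (adjusted p 0.291 and 0.547). COL9A1, the remaining chain of that collagen, had 24 counts in all.

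In the remaining classes COL7A1, COL6A3, COL28A1, 2 transmembrane collagens and COL18A1 were tested, and 1 of them passed and was higher. Over all genes tested, 33.8% passed and 17.3% were higher. COL7A1, the gene of the anchoring fibrils that fasten the basement membrane of epithelia, lies at chr3:48564073-48595267 and had 2472, 2710 and 2502 counts in control and 3456, 3746 and 3202 with 25(OH)D. It was the most abundant collagen transcript in the 25(OH)D libraries, and rose 1.48 times (log2 fold change 0.56 ± 0.06, adjusted p 5.53e-06). COL6A3, a chain of the beaded filaments of collagen VI, had 3, 16 and 14 counts in control and 17, 26 and 32 with 25(OH)D. Its log2 fold change of 1.30 ± 0.53 had an unadjusted p of 0.0280 and an adjusted p of 0.0745, and it passed the adjusted threshold when no low-count filter was applied (0.0317). Its partners were near the lower limit, with 0, 0 and 0 against 2, 2 and 2 counts for COL6A1 and 3 counts in all for COL6A2. COL28A1 had 51 to 61 and 41 to 58 counts (-0.05 ± 0.23, adjusted p 0.883). The transmembrane collagens COL13A1 and COL23A1 had 8 to 18 and 6 to 13 counts in control and 17 to 22 and 10 to 16 with 25(OH)D (0.79 ± 0.45 and 0.58 ± 0.48, adjusted p 0.199 and 0.394). COL18A1, a basement membrane collagen and the source of endostatin, had 69 to 84 and 45 to 74 counts (-0.19 ± 0.24, adjusted p 0.592), and 1401 of its 8525 exon bases are shared with SLC19A1 on the opposite strand, which was lower (-0.50 ± 0.11).

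**Figure D3:**
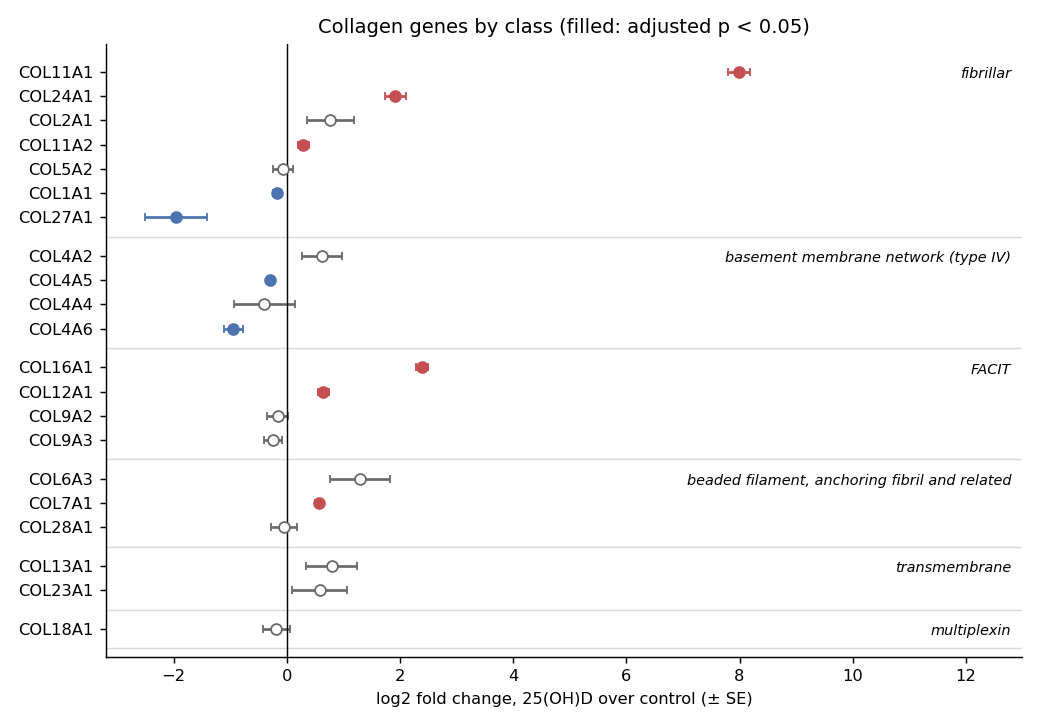
Log2 fold change of 25(OH)D over control with its SE for the 21 tested collagen genes, grouped by structural class, with filled points at an adjusted p under 0.05. The rises reach from 0.29 for COL11A2 to 7.99 for COL11A1 and the falls from -0.18 for COL1A1 to -1.96 for COL27A1. The SE drawn for COL11A1 is narrower than its counting error.

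The 20 genes that were not tested had at most 16 counts in any library. Of these, 11 had at least 10 counts over the 6 libraries, and they were COL1A2, COL25A1, COL4A3, COL9A1, COL20A1, COL17A1, COL5A1, COL21A1, COL10A1, COL8A2 and COL5A3. The other 9 had between 1 and 8 counts in all, and COL4A1, COL6A1 and COL6A2 are named from among them as partner chains, after their values were seen. COL21A1 had 2, 0 and 0 counts in control and 6, 2 and 4 with 25(OH)D, and COL10A1 had 0, 1 and 0 against 6, 4 and 1. Both pairs of groups lie at counts too low to read a difference at this depth. All 3 genes of types VIII and X, which form hexagonal networks, were among those not tested.

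The coding sequences of GENCODE 29 show how the classes differ. The longest unbroken run of triplets of codons that begin with a glycine codon (GGN) was 338 in COL11A1, COL11A2 and COL1A1, and 339 in COL5A2, COL2A1 and COL1A2. COL24A1 and COL27A1 had shorter runs of 216 and 217 triplets, and these fibrillar genes went opposite ways, with log2 fold changes of 1.92 and -1.96. In the type IV genes that fell, the longest runs were 42 triplets in COL4A5 and 38 in COL4A6, although 68.3% and 71.4% of their codons lay in runs of at least 5 triplets. COL16A1 had a longest run of 57 triplets, COL7A1 of 75, and COL12A1 of 32 with 7.64% of its 3063 codons in such runs.

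The promoter windows of the 3 collagen genes with the largest rises, all on chromosome 1, are shown for the letters that VDR is known to bind. The search used the hexamer AGGTCA, its form GGGTCA, its form AGTTCA and its form GGTTCA on both strands, and the direct repeat of any pair of them with 3 bases between. Windows were found for 31 of the 41 collagen genes, 43 windows in all. Where a gene had more than 1 window, the one whose start lies nearest the start in the count table is printed. These starts lie 26 bases from the count table's start for COL11A1, 302 for COL16A1 and 171 for COL24A1. The COL16A1 window does not reach the start in the count table, and which start was in use was not tested. The capitals mark the hexamers, and the windows are at chr1:103108473-103108772, chr1:31703968-31704267 and chr1:86156723-86157022, each on the minus strand.
COL11A1: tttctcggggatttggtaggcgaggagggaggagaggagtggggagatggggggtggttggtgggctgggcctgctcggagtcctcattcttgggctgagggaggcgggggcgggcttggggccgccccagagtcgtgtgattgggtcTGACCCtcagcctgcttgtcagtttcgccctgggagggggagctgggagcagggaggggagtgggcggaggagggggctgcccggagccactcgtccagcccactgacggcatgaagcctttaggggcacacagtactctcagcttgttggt
COL16A1: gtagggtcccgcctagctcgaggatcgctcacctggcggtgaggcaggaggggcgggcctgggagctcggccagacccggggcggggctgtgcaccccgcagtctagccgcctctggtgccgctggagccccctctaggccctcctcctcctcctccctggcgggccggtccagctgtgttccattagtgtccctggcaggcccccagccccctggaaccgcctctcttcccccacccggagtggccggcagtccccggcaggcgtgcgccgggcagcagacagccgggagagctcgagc
COL24A1: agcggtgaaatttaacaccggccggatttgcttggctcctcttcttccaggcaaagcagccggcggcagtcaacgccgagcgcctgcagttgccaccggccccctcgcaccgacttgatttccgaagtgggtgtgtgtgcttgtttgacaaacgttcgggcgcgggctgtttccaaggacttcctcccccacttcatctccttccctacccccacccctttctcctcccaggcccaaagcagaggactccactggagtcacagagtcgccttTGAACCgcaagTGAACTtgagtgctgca
The COL11A1 window held 1 hexamer, that of COL16A1 held none, and that of COL24A1 held 2 in the same direction with 5 bases between. The other COL24A1 window, which is not printed, held 1. At least 1 hexamer was present in 30.2% of the collagen windows and in 38.6% of all 35116 windows. None of the 43 collagen windows held the direct repeat with 3 bases between, which 0.0740% of all windows held. At so low a rate, its absence from 43 windows cannot set the collagen genes apart. The letters TATAAA were in 18.6% of collagen windows and 11.5% of all windows, and GGGCGG in 55.8% and 45.0%. These matches describe letters in the windows and do not show binding.

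**Figure D4:**
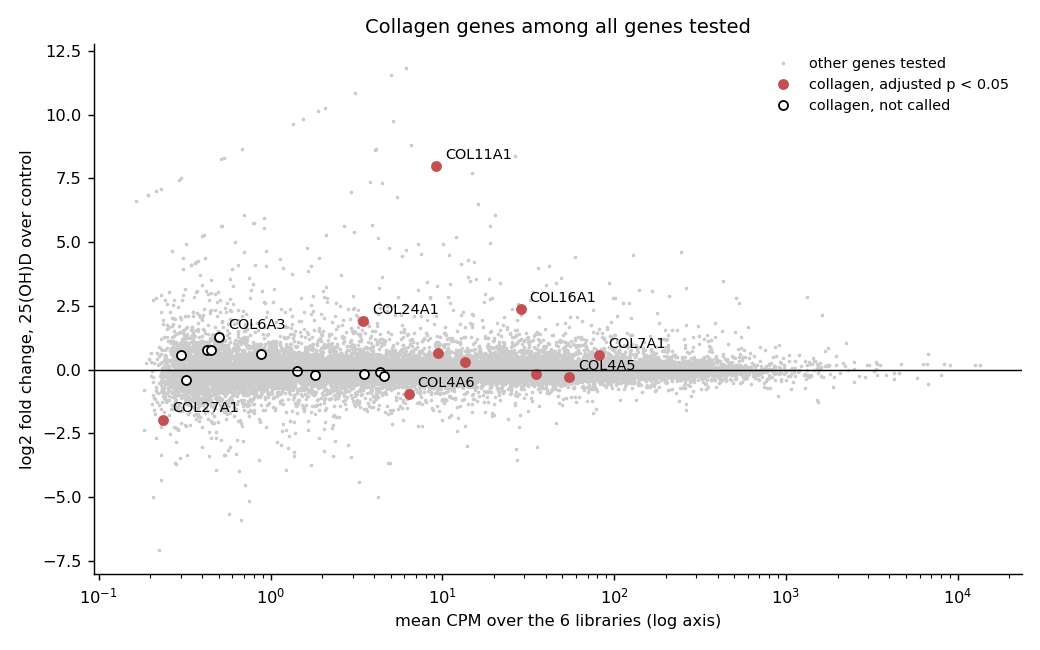
Mean CPM over the 6 libraries (log axis) against log2 fold change for the 18183 genes tested (grey), with the 10 collagen genes that passed the test filled in red and the 11 others open. COL11A1 lies at 7.99, COL16A1 at 2.39 and COL24A1 at 1.92, where 1.52% of all genes tested exceed COL24A1, and the 11 open points lie between 0.300 and 4.60 CPM.

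Collagen chains are modified, folded and secreted by a set of enzymes and carriers, and 27 of 38 such genes were tested. Of these, 10 were higher and 3 were lower, and the median log2 fold change was 0.12, beside 17.3% higher and 16.5% lower and a median of -0.01 over all genes tested. The member with the smallest p among the rises was P4HB, a subunit of prolyl hydroxylase, whose product makes the hydroxyproline that stabilises the collagen helix. It had 17709, 15863 and 15741 counts in control and 21005, 22508 and 18508 with 25(OH)D (0.46 ± 0.03, adjusted p 1.25e-07). PCOLCE and BMP1, whose products enhance and carry out the removal of the end piece of fibrillar procollagens, were the members that passed with a log2 fold change over 1. PCOLCE had 73, 68 and 43 counts in control and 143, 165 and 173 with 25(OH)D (1.53 ± 0.20, adjusted p 3.46e-05). BMP1 had 174, 192 and 164 against 391, 421 and 416 counts (1.34 ± 0.12, adjusted p 5.52e-07). The groups did not overlap for either gene. The 3 genes that were lower, listed after their values were seen, were MIA3, which loads large procollagens for export from the endoplasmic reticulum, CREB3L1, a transcription factor of secretory genes, and SERPINH1, the collagen chaperone. MIA3 had the smallest p of them, with 30758, 28908 and 27629 counts in control and 18041, 18906 and 16549 with 25(OH)D (-0.57 ± 0.03, adjusted p 9.73e-09). SERPINH1 had a log2 fold change of -0.20 ± 0.06 (adjusted p 0.0293), and its call was lost when any library other than 25(OH)D replicate 1 was left out (adjusted p 0.0582 to 0.134).

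Of the 12 collagen receptor genes, 8 were tested, 4 were higher and 2 were lower, with a median log2 fold change of 0.39, where 33.8% of all genes tested passed in either direction. DDR2, a receptor tyrosine kinase that binds fibrillar collagens, had 594, 611 and 547 counts in control and 1361, 1402 and 1312 with 25(OH)D (1.35 ± 0.07, adjusted p 3.03e-09). The other receptors that were higher, named after their values were seen, were ITGA2, a collagen-binding integrin chain (0.93 ± 0.08), DDR1, the epithelial relative of DDR2 (0.46 ± 0.05), and ITGB1, the shared integrin partner (0.13 ± 0.04). The ITGB1 call was lost without TMM factors, with upper-quartile factors, in both limma fits and without control or 25(OH)D replicate 2 (adjusted p 0.0957 to 0.288). ADGRG1, an adhesion receptor that binds collagen, had 1797, 1673 and 1791 counts in control and 1356, 1551 and 1293 with 25(OH)D (-0.20 ± 0.06, adjusted p 0.0213). MRC2, which takes up collagen fragments and is named after its values were seen, was at -0.50 ± 0.18 (adjusted p 0.0453). Neither fall held in every set of 5 libraries: both were lost without control replicate 3 or 25(OH)D replicate 1 or 2, and that of MRC2 also without control replicate 1 or 2, with an adjusted p of up to 0.119 for ADGRG1 and 0.194 for MRC2.

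Among 17 genes whose products bind collagen in the matrix, 8 were tested, 2 were higher and 1 was lower, a share of 37.5% beside 33.8% of all genes tested. BGN, the proteoglycan biglycan, had 14, 9 and 18 counts in control and 1085, 1356 and 956 with 25(OH)D. It was therefore low in each control library, and the ratio of its summed counts was 90.7 (exact 95% interval 66.7 to 127, and 60.0 to 153 with counts halved, counting error only). BGN passed the low-count filter only through the 25(OH)D libraries, and its fitted log2 fold change of 6.48 ± 0.16 (adjusted p 6.32e-13) depends on the prior count. The SE of BGN is also narrower than the counting error given by the exact interval. FMOD, the proteoglycan fibromodulin, which binds fibrils of type I collagen, had 2322, 2032 and 1948 counts in control and 4732, 5238 and 4260 with 25(OH)D (1.31 ± 0.05, adjusted p 2.35e-11). THBS1, the matrix protein thrombospondin 1, had 55058, 51070 and 50007 counts in control and 28275, 30285 and 26316 with 25(OH)D (-0.75 ± 0.03, adjusted p 2.12e-10). The fibroblast proteoglycan genes DCN and LUM had at most 6 and 2 counts in any library. The table held 12 collagen degradation genes, 6 were tested and 1 was higher, a share of 16.7% beside 17.3% higher over all genes tested. That gene was CTSL, a lysosomal protease, with 717, 595 and 756 counts against 1030, 1072 and 899 (0.67 ± 0.09, adjusted p 4.34e-05). The collagenase gene MMP13 had the smallest p among members with a negative log2 fold change and did not pass, with 267, 232 and 222 against 174, 156 and 188 counts (-0.33 ± 0.14, adjusted p 0.0829).

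**Figure D5:**
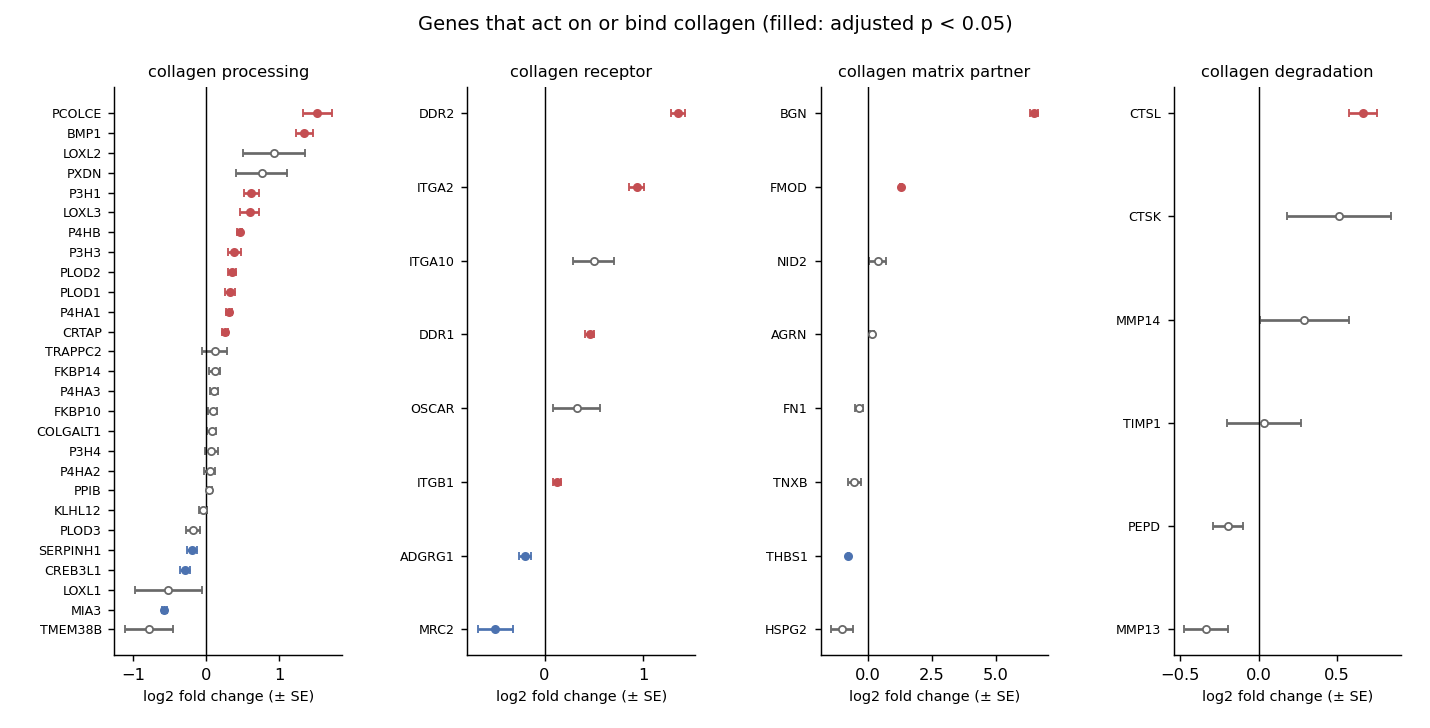
Log2 fold change of 25(OH)D over control with its SE for the tested genes of 4 lists (collagen processing, receptors, matrix partners, degradation), with filled points at an adjusted p under 0.05 and a separate axis for each list. BGN at 6.48, PCOLCE at 1.53 and DDR2 at 1.35 head their lists, and CTSL at 0.67 is the filled point among the degradation genes. The SE drawn for BGN is narrower than its counting error.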

How the data were processed

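The 6 libraries were assigned to control and 25(OH)D from their labels. Per the labels, mRNA libraries were made with a stranded kit and sequenced as read pairs. The submitters' processing notes name Trimmomatic 0.36, featureCounts, Subread 1.5.1 and edgeR 3.12.1 on GRCh38, and the aligner and annotation release are not given in the sources used here. The authors deposited counts per gene without normalization and RPKM values, which equalled the count divided by gene length and library total. Counts were fitted in R 4.3.3 with edgeR 4.0.16 (TMM, low-count filter at its defaults, quasi-likelihood test without covariates, Benjamini-Hochberg over all genes tested), and CPM used TMM-scaled library sizes. The SE is the absolute log2 fold change divided by the square root of F. For COL11A1, BGN and COL6A4P2, with few counts in control, it is narrower than the counting error. Alternatives used DESeq2 1.42.0, limma 3.58.1 on log2(RPKM + 1) and log2(RPKM + 0.1), other scalings and filters, a replicate block, other call limits and each library left out. Counts of 3 were worth 0.0720 to 0.0921 CPM, and intervals cover counting error only. All tested collagens are named. The other lists are represented by the smallest p among rises and among falls and by up to 4 genes a direction that passed with more than 1 log2 unit of change. Other members of these lists that are named fall outside this rule. The collagen genes and gene lists were chosen with earlier results of these data known. The test was checked on simulated data. Libraries within a group differed by more than sampling noise. Remaining steps used Python 3.11.15, pandas 2.3.3, numpy 2.4.6, scipy 1.17.1 and matplotlib 3.10.9.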

Additional observations from a re-analysis of the deposited data

How the results depend on the processing

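COL7A1, COL16A1, COL12A1, COL24A1, COL4A5 and COL4A6 kept direction and call under all 16 other fits, as did COL11A1 in the 15 that tested it. COL11A2 lost its call in 8, COL1A1 in 6 and COL27A1 in 3. The number of collagen genes higher stayed within 1.5 times of 6 in each fit and call rule, and lay between 5 and 6 with a library left out. The number lower lay between 2 and 5 with a library left out, and COL1A2 was the added gene in the fit without 25(OH)D replicate 3. Under the rule of more than 1 log2 unit and p under 0.05 before adjustment, 1 collagen gene was lower, 2 processing genes were higher and 0 lower, and 1 receptor was higher and 0 lower. Receptors lower numbered 1 by limma on log2(RPKM + 1), 1 on log2(RPKM + 0.1), and 0 to 2 with a library left out. Processing genes higher numbered 10 to 11 and lower 2 to 3, and receptors higher 3 to 4, with a library left out. With a library left out, signs turned without a call for COL5A2 (-0.18 to 0.18), COL9A2 (-0.27 to 0.032) and COL28A1 (-0.11 to 0.024). The cause was not tested. With the replicate number as a block, 6 collagen genes were higher and 3 lower, 10 processing genes higher and 4 lower, and 4 receptors higher and 2 lower. Same-numbered libraries did not deviate together (r -0.06, -0.02 and -0.04), so the numbers were not taken as pairs. Counts halved, a setting chosen after seeing the data, gave 6 and 4 collagen genes. Depth limits the genes under about 10 counts.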

Other observations

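Several genes have names that begin like those of the collagens and fell outside the rule. COL6A4P2, a pseudogene of a collagen VI chain, had 2, 6 and 4 counts in control and 58, 78 and 53 with 25(OH)D (log2 fold change 4.05 ± 0.41, adjusted p 2.70e-06 by edgeR). It passed the low-count filter only through the 25(OH)D libraries, its fitted fold depends on the prior count, and reads shared with other collagen VI genes would make this assignment uncertain. COL4A3BP, which encodes a ceramide transfer protein and no collagen, had 5470, 4899 and 4601 counts in control and 3194, 3477 and 2881 with 25(OH)D (-0.52 ± 0.04, adjusted p 3.16e-07). COL4A2-AS1, COL4A2-AS2, COL6A4P1, COL11A2P1 and COL5A1-AS1 had at most 6 counts in any library.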
